A study of Homo sapiens with 14 samples.

Results

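The Iroquois factors IRX1 to IRX6 are homeobox transcription factors, and every guide whose target name was one of these 6 symbols was taken from both deposited tables. This gave 42 guides of 11364, 7 for each gene, and the same 42 in both tables. The guides belong to a pooled CRISPR-Cas9 knockout library against transcription factors in H9, a widely used human embryonic stem cell line. All groups share this background: H9 cells with a doxycycline-inducible Cas9 and the transduced library, labelled with a WT genotype. The 14 libraries form 5 groups, namely undifferentiated cells at day 0 (2 libraries) and, at day 25 of cardiomyocyte differentiation, cells sorted as TNNT2- or TNNT2+ from 2D and from 3D cultures (3 libraries each). TNNT2 is cardiac troponin T, a protein of the contractile apparatus, so the sort separates cardiomyocytes from other cells. Guide cassettes were amplified from genomic DNA and sequenced. A level below is therefore the share of reads that belonged to the guides against a gene, in CPM (reads scaled to a common library total). It stands for the relative share of cells carrying these guides. It is not a number of cells and does not say how strongly the gene was expressed. Editing at the target sites and marker expression in the sorted cells were not analysed here. The study used 1 cell line, and whether the Cas9 cells were a clone is not given in the sources used here.

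Iroquois proteins carry a homeodomain of the TALE class, which has an extended loop, and act as activators or repressors depending on their partners. In the vertebrate heart they are known for patterning the ventricles. IRX4 marks ventricular muscle and, in chick and mouse, keeps atrial genes low there. IRX3 supports rapid conduction in the ventricular conduction system of mice, and IRX5 shapes the gradient of repolarisation across the mouse ventricular wall. IRX1 and IRX2 are expressed in parts of the developing ventricles in mice, and IRX6 is better known from the retina. The sort addresses whether losing a factor moves cells between the fractions, and day 25 against day 0 asks which guides are gained or lost over differentiation.

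The genes lie in 2 clusters (RefSeq annotation of GRCh38.p14, in which 6 of 6 symbols matched). IRX4 (chr5:1877413-1887179), IRX2 (chr5:2735635-2751677) and IRX1 (chr5:3595832-3601403) lie on chromosome 5, with gaps of 848 kb and 844 kb between neighbours. IRX3 (chr16:54283304-54286787), IRX5 (chr16:54930865-54934485) and IRX6 (chr16:55324203-55330756) lie on chromosome 16, with gaps of 644 kb and 389.7 kb. The files name the guides by gene and number and hold no guide sequences, so positions within the genes are not given here.

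Library totals lay between 22355936 and 31671019 reads. The counting error of a gene's summed level was at most 3.22% of that level (half-width of the 95% Wilson interval), and it does not cover losses before sequencing, since reads carry no molecular identifiers. Representation differed far more than depth. In 4 libraries, called thin below, over 10% of all guides had fewer than 10 reads. Of the 42 Iroquois guides, 14 were under 10 reads in the thin day 0 library (replicate 2). In the TNNT2- fraction of 3D cultures there were 5 in replicate 2 and 15 in replicate 3, and the TNNT2+ fraction of replicate 3 had 19. In this order these are 33.3%, 11.9%, 35.7% and 45.2% of the family, against 32.5%, 11.1%, 27.6% and 43.6% of all guides. In the other 10 libraries between 0 and 2 Iroquois guides were that low. The guides lost in one thin library were often present in another. Day 0 replicate 2 and 3D TNNT2- replicate 3 shared 7 low guides, which is 50% of the 14 and 46.7% of the 15, against 42.4% and 49.9% over all guides. Both sorted fractions of 3D replicate 3 shared 9, or 60% of the 15 and 47.4% of the 19, against 59.1% and 37.5%. Over all libraries and guides, 10.03% of the Iroquois values and 9.19% of all values were under 10 reads, and 12 of the 42 guides were never that low.

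No Iroquois gene passed the test between the sorted fractions in 2D or in 3D, nor in the test of 3D against 2D. In 2D, IRX5 guides had the highest value of the family toward TNNT2- cells, at a log2 fold change of 0.99 ± 0.47 (SE) for 3 libraries against 3, and IRX1, IRX2, IRX3, IRX4 and IRX6 lay between 0.12 and 0.26. In 3D the family was split, from -1.16 ± 0.77 (SE) for IRX2 to 0.78 ± 0.68 (SE) for IRX3. At day 25 against day 0 the value for IRX5 differed with the way guides were combined, and its call with the tool. Its summed guides were lower in all 12 day 25 libraries than in both day 0 libraries, a lack of overlap found for 6.23% of genes in 2D and 3.33% in 3D. In the thin day 0 replicate 2 the guide IRX5_1 alone held 404.9 of the 508.6 CPM. On these sums DESeq2 called IRX5 in 2D (-0.68, adjusted p = 0.0123), as it called 1.11% of genes lower, and edgeR did not (-0.67, adjusted p = 0.585), while the mean over guides used for the main test lay at 0.31 ± 0.97 (SE) in 2D and -0.34 ± 1.18 (SE) in 3D. Adjusted p-values are limma's with Benjamini-Hochberg adjustment over 1621 genes unless another tool is named, and the threshold is 0.05. With this rule 0% of the 1621 genes were called in each of the 5 comparisons, so that the 0 of 6 Iroquois genes equals the background.

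IRX4, the ventricular member, had 625 and 486 CPM at day 0, summed over its 7 guides. In 2D its levels were 518, 775 and 613 CPM in TNNT2- and 676, 392 and 573 CPM in TNNT2+ libraries. In 3D they were 682, 427 and 357 CPM in TNNT2- and 499, 489.9 and 687 CPM in TNNT2+ libraries. All 5 groups overlapped, and no neighbouring pair in the order of group means (2D TNNT2-, 3D TNNT2+, day 0, 2D TNNT2+, 3D TNNT2-) was separated by more than the larger SD. In the 2D sort IRX4 had a log2 fold change (TNNT2- over TNNT2+, mean over guides) of 0.26 ± 0.23 (SE), with a 95% interval from -0.23 to 0.75 (adjusted p = 0.963, limma). Of its 7 guides, 6 were higher in TNNT2- cells, and their SD of 0.39 was the smallest of the family. Summed levels did not follow one direction over the replicates: the log2 ratio of same-numbered fractions was -0.38, 0.98 and 0.10. In the 3D sort IRX4 lay on the other side, at -0.78 ± 0.63 (interval -2.10 to 0.53), with 2 of 7 guides toward TNNT2- (adjusted p = 0.990). Without the 3 thin 3D libraries, a fit with 1 TNNT2- library, it was 0.08 (adjusted p = 0.995), in the opposite direction.

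Single IRX4 guides spread more in the 3D sort than in the 2D sort, with an SD over guides of 1.21 against 0.39. The median SD over all genes was 1.84 in 3D and 0.60 in 2D. IRX4_1, with a median of 85.2 CPM over the 14 libraries, had 113, 90.7 and 95.5 CPM in 2D TNNT2- and 65.2, 55.8 and 62.9 CPM in 2D TNNT2+ libraries. The fractions of this guide, picked after its values were seen, did not overlap, as for 4.83% of all guides in this direction, and it did not pass (unadjusted p = 0.161, limma on single guides). In 3D TNNT2- libraries the same guide had 3695, 43 and 2653 reads, and in 3D TNNT2+ libraries 1374, 2190 and 2565 reads. IRX4_7 had 0 reads in 3D TNNT2+ replicate 3, which allows up to 0.122 CPM (3 reads) and at least 317 reads in every other 3D library. At the level of single guides IRX4_1 had 0.67 in the 2D sort, the highest of the 7, and IRX4_3 had -0.42, the lowest.

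IRX3, the conduction system factor, had the highest mean level of the family over all libraries, 742 CPM. It had 764 and 809 CPM at day 0. In 2D it had 646, 749 and 719.7 CPM in TNNT2- and 706, 880.1 and 639 CPM in TNNT2+ libraries, and the fractions overlapped. In 3D the levels were 792, 626 and 1419.7 CPM in TNNT2- and 543, 615 and 484 CPM in TNNT2+ libraries. Here all TNNT2- libraries lay above all TNNT2+ libraries, as they did for 4.32% of all 1621 genes (4.19% in the other direction), and IRX3 was the only member of the family without overlap in a sort. Of these, TNNT2- replicates 2 (626 CPM) and 3 (the highest) and TNNT2+ replicate 3 (484 CPM) are thin. The gap between the nearest libraries was 626 against 615 CPM. The log2 fold change was 0.78 ± 0.68 (SE, interval -0.64 to 2.19) in 3D and 5 of 7 guides lay toward TNNT2- (adjusted p = 0.990, limma). It was 0.72 without the thin libraries, in a fit with 1 TNNT2- library, and -0.02 without 3D TNNT2- replicate 3. edgeR on summed reads gave 0.83, with an unadjusted p of 0.0333 and an adjusted p of 0.961; an unadjusted p under 0.05 toward TNNT2- was reached by 2.59% of genes there. In 2D IRX3 had 0.12 ± 0.23 (interval -0.37 to 0.60), with 3 of 7 guides toward TNNT2- (adjusted p = 0.963). Guides of opposite direction stood behind this value near 0. IRX3_2 had -0.87 (unadjusted p = 0.0391, limma on single guides) and IRX3_3 had 1.82, the latter with 77 reads in 2D TNNT2+ replicate 1 and 1117 or more in the other 2D libraries.

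IRX5, the repolarisation factor, started from a level below the middle of the library and stood near its bottom at day 25. Its guides summed to 512 and 509 CPM at day 0. At day 25 they summed to 425, 365 and 318 CPM in 2D TNNT2-, 275, 232 and 327 CPM in 2D TNNT2+, 363, 156 and 496 CPM in 3D TNNT2- and 324, 369 and 187 CPM in 3D TNNT2+ libraries. Every day 25 library was below both day 0 libraries, as for 6.23% of all genes in 2D and 3.33% in 3D. Of the 508.6 CPM in the thin day 0 replicate 2, 404.9 CPM came from the guide IRX5_1. The lack of overlap without this guide was not tested. Among the 1574 targets with 7 guides, the mean of IRX5 stood at percentile 32.7 at day 0, 1.65 in 2D TNNT2-, 0.254 in 2D TNNT2+, 4.32 in 3D TNNT2- and 1.65 in 3D TNNT2+. Of the neighbours in the order of group means, day 0 (510.4 ± 2.55 CPM, SD, n = 2) and 2D TNNT2- (369 ± 53.9 CPM, SD, n = 3) did not overlap, while the 3D TNNT2-, 3D TNNT2+ and 2D TNNT2+ groups followed within their spread. IRX5 also had the most low values of the family, with 19.4% of its guide values under 10 reads, against 7.14% to 10.2% for the other genes.

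In the 2D sort IRX5 had 0.99 ± 0.47 (SE), with a 95% interval from 0.01 to 1.98, at percentile 99.6 of all genes. The unadjusted p was 0.0489 and the adjusted p 0.963 by limma; 2.59% of genes had an unadjusted p under 0.05 in this direction. With the replicate number as a block the adjusted p was 0.896. Summed levels overlapped narrowly, as the lowest TNNT2- library had 318 and the highest TNNT2+ library 327 CPM, and edgeR on summed reads gave 0.41 (adjusted p = 0.980). Of the 7 guides 6 were higher in TNNT2- cells, but 2 of them carried most of the mean. IRX5_4 had 1214, 1065 and 238 reads in 2D TNNT2- and 28, 0 and 148 reads in 2D TNNT2+ libraries, a log2 fold change of 4.04 (unadjusted p = 0.0280, adjusted p = 0.986, limma on single guides). IRX5_7 had 757, 469 and 672 reads in TNNT2- and 0, 142 and 650 reads in TNNT2+ libraries, a value of 2.60. The other 5 guides lay between -0.93 and 0.53, and the median over the 7 guides was 0.31. Both IRX5_4 and IRX5_7 are weakly represented guides, with medians of 12.1 and 3.13 CPM over the 14 libraries, against 113 CPM for IRX5_1.

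In 3D IRX5 had 0.45 ± 1.40 (SE, interval -2.47 to 3.36), and 4 of 7 guides lay toward TNNT2- (adjusted p = 0.992, limma). IRX5_4 had -0.23, with 354, 1291 and 1 reads in TNNT2- and 915, 1237 and 0 reads in TNNT2+ libraries. IRX5_7 had 1.19, the same direction as in 2D, with 219, 2 and 3 reads in TNNT2- and 1, 4 and 0 reads in TNNT2+ libraries. IRX5_6 had the lowest value, -4.23, with 1167, 870 and 0 reads in TNNT2- and 4197, 2037 and 4574 reads in TNNT2+ libraries. Its 3 TNNT2+ libraries lay above its 3 TNNT2- libraries, as for 3.86% of all guides, with an unadjusted p of 0.0583 by limma on single guides. In 2D this guide, chosen here as the lowest in 3D, had 0.53, in the opposite direction. The difference between systems for IRX5 was -0.49 ± 1.41 (adjusted p = 0.997), and for IRX5_6 alone -4.65 (unadjusted p = 0.0368, adjusted p = 0.948, limma on single guides; 1.41% of guides were lower at an unadjusted p under 0.05).

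IRX1 had 719 and 1009.7 CPM at day 0. Its levels were 709, 658 and 544 CPM in 2D TNNT2-, 534, 501 and 620.0 CPM in 2D TNNT2+, 726, 509 and 1023 CPM in 3D TNNT2- and 469.7, 841 and 706 CPM in 3D TNNT2+ libraries. All 6 libraries from 2D cultures lay below both day 0 libraries, as they did for 6.23% of genes, while the 3D libraries overlapped them. In the sorts IRX1 had 0.25 ± 0.26 (SE, interval -0.29 to 0.79) in 2D and 0.19 ± 0.56 (SE, interval -0.98 to 1.36) in 3D, with adjusted p of 0.963 and 0.992 by limma. Guides disagreed, as 4 of 7 were higher in TNNT2- cells in 2D and 3 of 7 in 3D. IRX1_3 was higher in the 2D TNNT2- libraries, at 211, 213 and 129 CPM against 79.6, 124 and 93.3 CPM (0.85, unadjusted p = 0.0301, limma on single guides), and lay at -0.58 in 3D. Over the 42 guides, 3 had an unadjusted p under 0.05 in the 2D sort, IRX1_3 and IRX5_4 toward TNNT2- and IRX3_2 toward TNNT2+. Per direction 1.67% of 11346 tested guides reached this, and no guide passed after adjustment.

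IRX2 had 529.9 and 990.0 CPM at day 0. It had 477, 618 and 638 CPM in 2D TNNT2- and 441, 482 and 649 CPM in 2D TNNT2+ libraries, which overlapped. In 3D it had 523, 316 and 352 CPM in TNNT2- and 626, 501 and 1017 CPM in TNNT2+ libraries, so that only TNNT2- replicate 1 reached the TNNT2+ range. The 2D sort gave 0.24 ± 0.23 (SE, interval -0.25 to 0.73) with 5 of 7 guides higher and the 3D sort -1.16 ± 0.77 (SE, interval -2.77 to 0.45) with 2 of 7 higher (adjusted p of 0.963 and 0.990, limma). Their difference, 3D minus 2D, was -1.34 ± 0.91 (SE, interval -3.25 to 0.56), without passing in limma (adjusted p = 0.997) or in edgeR on summed reads (unadjusted p = 0.0393, adjusted p = 0.947, with 1.73% of genes lower at an unadjusted p under 0.05). For the 3D sort alone edgeR gave IRX2 -0.84 (unadjusted p = 0.0497, adjusted p = 0.961), and 1.23% of genes were lower there at an unadjusted p under 0.05. In 3D same-numbered fractions gave log2 ratios of -0.26, -0.66 and -1.53. IRX2_7, picked as the guide of IRX2 with the lowest value in the 3D sort (-2.81), had 1157, 3 and 4596 reads in 3D TNNT2- libraries. In 3D TNNT2+ libraries it had 1787, 819 and 9902 reads. IRX2_6 had the highest value, 1.59, in the opposite direction. Without the 3 thin libraries, in a fit with 1 TNNT2- library, the 3D value of IRX2 fell in size to -0.14.

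The summed level of IRX6 varied least of the family, but its mean over guides did not. The SE of that mean was 0.29 in the 2D sort and 0.94 in the 3D sort. Among the Iroquois genes only IRX5 had a larger SE, 0.47 in 2D and 1.40 in 3D. Summed over its guides, IRX6 had 431 and 411 CPM at day 0, 463, 465 and 411 CPM in 2D TNNT2- and 406, 428 and 366 CPM in 2D TNNT2+ libraries. In 3D it had 402, 498 and 661 CPM in TNNT2- and 389.6, 390.4 and 529 CPM in TNNT2+ libraries. The coefficient of variation over the 14 libraries was 17.1%, at percentile 9.02 of the 1574 targets with 7 guides, against 22.3% to 35.1% for the other Iroquois genes and a median of 25.5%. Summed IRX6 guides were higher in TNNT2- than in TNNT2+ cells for each of the 6 same-numbered pairs, with log2 ratios of 0.19, 0.12 and 0.17 in 2D and 0.04, 0.35 and 0.32 in 3D. This held for 1.54% of all genes, and the correlations of same-numbered fractions after removing group means were low (0.0560 to 0.126). Both 3D libraries of replicate 3 and TNNT2- replicate 2 are thin. In replicate 3, 4 of 7 IRX6 guides were under 10 reads in TNNT2- and 3 in TNNT2+ cells. There IRX6_3 and IRX6_1 had 12333 and 3989 reads in TNNT2- and 358 and 2 in TNNT2+ cells. IRX6_7 and IRX6_5 went the other way, with 4589 and 4 reads against 8571 and 3987. None of the tests passed: IRX6 had 0.21 ± 0.29 (SE, interval -0.40 to 0.83) in 2D and -0.07 ± 0.94 (SE, interval -2.03 to 1.90) in 3D (adjusted p of 0.963 and 0.996, limma). The 3D mean over guides and the 3D sum differed in sign, since edgeR on summed reads gave 0.28 (adjusted p = 0.962). IRX6_5 had 870, 1947 and 4 reads in 3D TNNT2- and in 3D TNNT2+ libraries 167, 244 and 3987 reads.

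Over the family the sort ratios of 2D lay toward TNNT2- for 6 of 6 genes and 28 of 42 guides. Over all genes tested 56.9% lay on this side, and over all guides 50.6%. The median of the 6 gene values was 0.24 against 0.05 over all genes, and the median guide had 0.20 against 0.01 over all guides and -0.04 over the 100 control guides. In 2D the summed levels of 0 of 6 genes did not overlap between fractions, against 4.13% of genes higher and 4.69% lower in TNNT2- cells. The members share their libraries, so they are not independent of each other. In 3D the family showed no side: 3 of 6 genes and 19 of 42 guides (45.2%, against 47.0% of all guides) lay toward TNNT2-. The 3D gene medians were 0.06 for the family and -0.08 over all genes. The 2D test resolved more, with a median SE of 0.24 over the 6 genes against 0.72 in 3D, close to the medians over all genes of 0.25 and 0.76. The test of 3D against 2D called 0 of 6 genes and 0% of all, with IRX2 at the low end (-1.34) and IRX3 at the high end (0.79 ± 0.82). For this difference edgeR on summed reads gave IRX3 0.89 (unadjusted p = 0.0344, adjusted p = 0.947), and 2.47% of genes were higher at an unadjusted p under 0.05.

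All guides of the family together summed to 3581 and 4215 CPM at day 0. They summed to 3238, 3629.6 and 3243 CPM in 2D TNNT2- and 3039, 2915 and 3175 CPM in 2D TNNT2+ libraries. In 3D the sums were 3488, 2533 and 4308 CPM in TNNT2- and 2852, 3206 and 3609.8 CPM in TNNT2+ libraries. Day 0 and day 25 overlapped, as day 0 replicate 1 lay below 2D TNNT2- replicate 2, 3D TNNT2- replicate 3 and 3D TNNT2+ replicate 3.

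For day 25 against day 0 both fractions of a differentiation were averaged, and the same 2 day 0 libraries served both systems. Over all 1621 genes the mean over guides had a median log2 fold change of 0.82 in 2D and 0.70 in 3D, while the median single guide lay at 0.08 and 0.41. The Iroquois values are therefore placed above or below the gene median of the system, which was not subtracted from them. In 2D, IRX4 (1.31 ± 0.67) and IRX3 (0.89 ± 0.54) lay above it. IRX6 (0.41 ± 0.60), IRX2 (0.35 ± 0.34), IRX5 (0.31 ± 0.97) and IRX1 (-0.38 ± 0.28) lay below it, with SE for each and adjusted p from 0.411 to 0.806 by limma. IRX1 stood at percentile 4.57 of all genes, with 1 of 7 guides higher at day 25. In 3D, IRX4 (1.37 ± 0.71) and IRX3 (1.12 ± 0.68) again lay above, and IRX6 (0.14 ± 0.80), IRX2 (0.01 ± 0.65), IRX1 (-0.26 ± 0.62) and IRX5 (-0.34 ± 1.18) below, with adjusted p from 0.438 to 0.995.

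For 5 of the 6 genes the 2D values differed with the day 0 library used as the reference, and for IRX2 they were close. Set against day 0 replicate 1 alone, IRX4 had 0.26 in 2D, IRX3 0.02, IRX5 -0.76, IRX6 0.02 and IRX1 -0.21. Set against day 0 replicate 2 alone, IRX4 had 2.36, IRX3 1.75, IRX5 1.39, IRX6 0.79 and IRX1 -0.54. IRX2 had 0.33 against replicate 1 and 0.36 against replicate 2. Each fit assumed that its lone day 0 library varied like the day 25 samples, so which genes passed is not given. The medians over all genes in these fits are not given here either. Some guides were low in day 0 replicate 2 and not in replicate 1. IRX4_2, IRX4_5 and IRX4_7 had 3756, 1519 and 414 reads in day 0 replicate 1 and 3, 3 and 4 reads in day 0 replicate 2, and 862 or more reads in every 2D library. IRX2 also had guides under 10 reads there, IRX2_3 with 2 and IRX2_5 with 6 reads, and IRX1 had IRX1_5 with 6 reads. The part of low guides in these values was not tested.

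Summed guides gave other values. edgeR on summed reads gave -0.67 for IRX5 and -0.56 for IRX1 in 2D, with unadjusted p of 0.0262 and 0.0243, adjusted p of 0.585 each, and 4.32% of genes lower at an unadjusted p under 0.05. DESeq2 on the same sums called IRX5 lower in 2D, at -0.68 with an adjusted p of 0.0123, as it did 1.11% of all genes, and gave IRX1 an adjusted p of 0.0875. In 2D, summed levels of 2 of the 6 genes (IRX1 and IRX5) were lower in every day 25 library than at day 0, against 6.23% of all genes. In 3D this held for IRX5 alone, against 3.33% of genes (0 of 6 were higher without overlap, against 5.74% of genes in 2D and 3.02% in 3D), with -0.66 by edgeR (adjusted p = 0.808) and -0.67 by DESeq2 (0.278). The guides of IRX5 differed in direction. IRX5_1 had 4385 and 10279 reads at day 0 and 924 to 4144 reads in the 2D libraries, a value of -1.69 (unadjusted p = 0.0217, limma on single guides, where 3.97% of guides were lower at an unadjusted p under 0.05). IRX5_6 had 1245 and 583 reads at day 0 and 849 to 3320 reads in 2D, a value of 1.07. The 2 day 0 sums were nearly equal, at 512 and 509 CPM, although the guides behind them differed: IRX5_3, IRX5_4 and IRX5_7 had 1348, 1183 and 498 reads in replicate 1 and 9, 3 and 0 reads in replicate 2. IRX5_1 made up 153.6 CPM of the sum in replicate 1 and 404.9 CPM of the sum in replicate 2.

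Guides against the same gene did not move together over the libraries. The median Pearson correlation between guides of one gene over the 14 libraries (log2 scale) was 0.24 for IRX5, 0.10 for IRX3, -0.03 for IRX6, -0.04 for IRX4, -0.09 for IRX1 and -0.27 for IRX2, against a median of 0.01 over all genes. Over the 10 libraries that are not thin they lay between -0.19 and 0.07. Means over guides of different genes share the libraries and their low guides, and their median correlation was 0.48 among the 15 pairs of Iroquois genes and 0.48 among all pairs of genes. The targets most like each member over the 14 libraries were FOXF1 and SP4 for IRX1 (0.89 and 0.88), NFYB and OLIG3 for IRX2 (0.95 each), REPIN1 and BHLHA9 for IRX3 (0.88 each), NR2E3 and THRB for IRX4 (0.95 and 0.94), GCM2 and LHX1 for IRX5 (0.93 and 0.92) and PCGF2 and ZFP2 for IRX6 (0.98 and 0.97). These are the highest of 1620 correlations per gene and are given as a description.

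Factors that work with Iroquois proteins in the heart, and their relatives, gave no calls either. Of 21 ventricular and conduction partners 0 passed in any of the 5 comparisons, with 12 of 21 toward TNNT2- in 2D (median 0.06) and 9 of 21 in 3D (median -0.04). SHOX2, a sinoatrial node regulator, had the smallest p in 2D (0.86 ± 0.33 SE, adjusted p = 0.963, limma), and MEF2C, a muscle differentiation factor, in 3D (2.46 ± 1.18 SE, adjusted p = 0.990). Of 12 other TALE homeobox genes 0 passed in any comparison, and 10 of 12 lay toward TNNT2- in 2D (median 0.22, against 0.05 over all genes) and 5 of 12 in 3D (median -0.21, against -0.08). PBX4 had the smallest p of the list in 2D at 0.42 ± 0.24, below the highest value of 0.59, and MEIS3 in 3D at -1.73 ± 0.75, with SE and the same adjusted p as above. Of 10 commonly essential factors 0 passed in any comparison. At day 25 against day 0, 8 of 10 lay above 0 in both systems, against 86.8% of all genes in 2D and 82.1% in 3D. The medians of the list were 0.88 in 2D and 0.91 in 3D, against 0.82 and 0.70 over all genes. NRF1, a regulator of mitochondrial genes, had the smallest p of this list in the 2D sort at 0.55 ± 0.35 and NFYA, a subunit of the CCAAT-binding factor, in the 3D sort at -2.49 ± 0.94, with SE and the same adjusted p as above. Guides against factors that most cells need were not called as lost, but limma called 0% of all 1621 genes at day 25 in either system. At day 25 the partners had medians of 0.79 and 0.75 and the TALE genes 1.03 and 0.88 in 2D and 3D.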

How the data were processed

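Guide counts came from amplified guide cassettes in genomic DNA of 14 libraries. The authors deposited 2 tables of a normalized signal per guide, for the 2D and the 3D system, and day 0 stands in both under different scaling factors. MAGeCK and the build hg38 are named in the submitters' processing notes. Version and settings were not stated. Each deposited signal value was a read count divided by 1 factor per library: divided by the smallest value above 0, 100% of values were whole within 0.001, and these reads gave totals, CPM and count tests.

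The main test was limma 3.58.1 (trend option) on gene values, defined as the mean of log2(value + 10) over a gene's guides in a library. It used guides with a mean of at least 10 and genes with at least 3 such guides, 1621 in all. Log2 fold changes refer to value + 10 and are too small for low guides. The difference of the sort ratios used reads of all 12 day 25 libraries scaled together by median ratios. edgeR (version 4.0.16) with TMM factors and DESeq2 (version 1.42.0) ran on reads summed per gene. edgeR called 0 genes in each of the 5 comparisons. At an unadjusted p under 0.05, edgeR had 62 genes in each sort and limma 62 in 2D and 47 in 3D. Rank aggregation of guide p-values after MAGeCK used guides under 0.25 and an exact null of uniform ranks. The scripts were tested on simulated reads without thin libraries, so these runs do not show how the tests behave where libraries are thin.

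Per the labels' protocols each of 3 differentiations gave a TNNT2- and a TNNT2+ fraction, and an equal number was read as the same differentiation. After removing group means, the fractions sharing a number correlated at 0.0767, 0.108 and 0.126 (2D cultures, replicates 1 to 3) and at 0.109, 0.0560 and 0.0735 (3D cultures), each higher than with another number. The origin of the day 0 replicates in separate cultures is not stated, so their spread may be technical. Genes named besides IRX1 to IRX6 are, by rule, the 2 targets most correlated with each member and the member of each list with the smallest p in each sort. FOXO1, named for its call by rank aggregation in the 3D sort, is outside this rule. Single guides were picked after their values were seen. Members, lists and tests were chosen with earlier results of these data known. Alternatives covered pseudocounts of 1 and 100, no filter, scaling on control guides or totals, medians over guides, rank aggregation, count models, a replicate block, single fractions, and libraries left out.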

Additional observations from a re-analysis of the deposited data

How the results depend on the processing

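Under the alternatives run, no Iroquois gene passed the threshold in either sort, in their difference or at 3D day 25, and limma's 0 calls held there except as follows. In the 3D sort rank aggregation called 1 gene higher (FOXO1), DESeq2 2 higher, and leaving out single libraries gave 0 to 2 lower. At 2D day 25 rank aggregation called 1 gene higher, DESeq2 15 higher and 18 lower (IRX5 among them), and leaving out the thin library 17 higher; leaving out single libraries gave 0 to 1244 higher and 0 to 109 lower. At 3D day 25 a pseudocount of 1 gave 4 higher, DESeq2 10 higher and 2 lower, and leaving out single libraries 0 to 341 higher and 0 to 4 lower. With the replicate number as a block there were 0 calls in both sorts and in their difference, and this changed no call.

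Directions turned as follows; the cause was not tested. In the 2D sort IRX1 had -0.000104 as a median over guides, and IRX3 had -0.072 by edgeR, -0.076 by DESeq2 and -0.085 to 0.34 with single libraries left out. In the 3D sort IRX6 had 0.077 at a pseudocount of 100, 0.067 on total reads (an alternative added after seeing the data), 0.28 by edgeR, 0.27 by DESeq2 and 0.15 without thin libraries, where IRX4 had 0.080; medians over guides gave -0.14 for IRX1 and -0.28 for IRX5. Leaving out single libraries gave -0.017 to 1.47 for IRX3, -0.58 to 1.07 for IRX5 and -0.51 to 0.56 for IRX6.

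At 2D day 25 a pseudocount of 100 gave -0.039 for IRX2 and -0.16 for IRX5, and total reads 0.025 for IRX1. IRX2, IRX3, IRX5 and IRX6 had -0.70, -0.86, -0.35 and -0.46 as medians over guides, -0.49, -0.15, -0.67 and -0.015 by edgeR and -0.50, -0.16, -0.68 and -0.024 by DESeq2. IRX5 had -0.76 without the thin library, -0.56 in TNNT2+ cells alone and -0.76 to 1.39 with single libraries left out.

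At 3D day 25 IRX2 had -0.10 at a pseudocount of 100, -0.021 on control guides and -0.051 on total reads. Medians over guides gave -0.19 for IRX2, -0.075 for IRX3, 0.28 for IRX5 and -0.16 for IRX6. IRX2, IRX3 and IRX4 had -0.49, -0.040 and -0.11 by edgeR and -0.51, -0.052 and -0.12 by DESeq2. Without thin libraries IRX1, IRX3 and IRX6 had 0.10, -0.033 and -0.0062. TNNT2- cells alone gave -1.12 for IRX2 and -0.45 for IRX6, and TNNT2+ cells alone -0.39 for IRX6. Leaving out single libraries gave -0.66 to 0.13 for IRX1, -0.58 to 0.24 for IRX2, -1.28 to 0.48 for IRX5 and -0.34 to 0.27 for IRX6.

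For 3D minus 2D, IRX1 had -0.00079 on control guides, -0.024 by edgeR, -0.041 by DESeq2 and -0.052 without thin libraries, and IRX6 had 0.12 by edgeR and 0.10 by DESeq2. Leaving out single libraries gave -0.44 to 0.41 for IRX1, -1.77 to 0.22 for IRX5 and -0.96 to 0.55 for IRX6. Counting error was at most 3.22% of a gene's summed level, but it is larger for single low guides, and 10.03% of the Iroquois values were under 10 reads; without the thin libraries limma again called 0 genes in the 3D sort, at 3D day 25 and in the difference.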
